A study of Mus musculus with 5 samples.

Results

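The p53 transcription factor gene Trp53 and 9 of its textbook target genes, Mdm2, Fas, Gadd45a, Ccng1, Btg2, Plk2, Sesn1, Trp53inp1 and Zmat3, were followed in mouse sarcoma cells that carry a doxycycline-inducible EWS/ATF1 fusion gene. The 10 genes were chosen by name for their place in the pathway, with earlier results of these data known. They were read by 11 probes of 55681, with Trp53inp1 on 2 probes. They are 10 of 20018 named genes on the array. The cells came from tumour lines established from sarcomas that arose in mice after the fusion was induced, on a mixed C57/BL6, 129 and ICR background. Total RNA was measured on 5 one-colour arrays, 1 for each of 5 groups: low and high doxycycline and a control at 3 h, and high doxycycline and a control at 48 h. The fusion allele was present in all groups, the controls included. The doxycycline concentrations, whether the control cultures received any, and the tumour line behind each array are not stated in the labels. A difference between arrays can therefore include a difference between lines or cultures.

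p53 is a DNA-binding protein that is held at a low level by Mdm2, a ubiquitin ligase that marks it for degradation and is itself a p53 target. DNA damage and other stresses free p53 from Mdm2, so that p53 activity is set largely by the amount and modification of the protein rather than by its mRNA. Its targets halt the cell cycle, repair DNA, lower oxidative stress or start cell death, and cell cycle genes are lowered, mostly indirectly through the inhibitor Cdkn1a. EWS/ATF1, the fusion protein of clear cell sarcoma, keeps the DNA-binding domain of ATF1, which recognises the cAMP response element (CRE). Fos, which the study's title names, encodes a subunit of AP-1, a factor with its own recognition motif.

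Because the fusion and Fos each have a known DNA motif, the sequence before the start site is shown for the 4 genes whose window held a full CRE, an AP-1 motif or, for Gadd45a, a p53 decamer. Windows were the RefSeq promoters of build GRCm38.p6, 250 bases before to 50 bases after the start, and 8 of the 10 genes were matched, all but Trp53inp1 and Zmat3. The 250 bases before the start are printed 5′ to 3′ on the gene's strand. Capitals mark the CRE (TGACGTCA) in Btg2 and Plk2, the p53 decamer in Gadd45a and AP-1 (TGAGTCA) in Fas.
Btg2, chr1:134079156-134079405, minus strand: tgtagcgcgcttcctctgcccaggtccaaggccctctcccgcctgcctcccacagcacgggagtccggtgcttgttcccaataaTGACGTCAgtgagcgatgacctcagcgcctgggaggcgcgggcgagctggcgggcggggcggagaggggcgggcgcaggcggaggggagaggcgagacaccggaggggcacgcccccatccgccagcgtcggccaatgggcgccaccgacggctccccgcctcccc
Plk2, chr13:110394794-110395043, plus strand: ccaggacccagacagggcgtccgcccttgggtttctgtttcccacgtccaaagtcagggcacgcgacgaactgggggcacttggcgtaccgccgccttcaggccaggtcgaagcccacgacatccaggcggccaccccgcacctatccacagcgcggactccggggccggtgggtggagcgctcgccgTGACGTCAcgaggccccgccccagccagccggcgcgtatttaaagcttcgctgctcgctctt
Gadd45a, chr6:67037408-67037657, minus strand: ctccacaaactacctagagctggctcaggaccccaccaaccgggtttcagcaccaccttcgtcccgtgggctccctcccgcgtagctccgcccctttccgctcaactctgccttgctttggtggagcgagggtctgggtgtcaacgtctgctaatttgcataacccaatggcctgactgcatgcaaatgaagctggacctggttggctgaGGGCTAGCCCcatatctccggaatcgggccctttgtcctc
Fas, chr19:34290409-34290658, plus strand: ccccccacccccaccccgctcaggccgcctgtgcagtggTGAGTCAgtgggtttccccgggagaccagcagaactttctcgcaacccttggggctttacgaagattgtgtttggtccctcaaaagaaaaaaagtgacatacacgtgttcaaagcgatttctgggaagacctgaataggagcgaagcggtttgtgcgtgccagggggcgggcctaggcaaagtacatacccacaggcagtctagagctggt
Counted from the start site, the CRE lay at -166 to -159 in Btg2 and at -62 to -55 in Plk2. Searched on both strands, TGACGTCA was found in 1.79% of 32851 promoter windows of the same length. The AP-1 motif, TGAGTCA or TGACTCA, lay at -211 to -205 in Fas and occurred in 5.2% of windows. A p53 site is a pair of decamers, and a single perfect decamer was found in 8.36% of windows. One lay at -40 to -31 in Gadd45a, and others were found in the windows of Trp53, Mdm2, Ccng1 and Sesn1, which are not printed. A decamer was thus not particular to Gadd45a. A pair of decamers with at most 2 mismatches and at most 13 bases between them was found for Gadd45a (2 mismatches), Ccng1 (1) and 1 of the 2 Sesn1 windows (2), against 10.1% of all windows. The Cdkn1a window, shown by its result only, held a pair with 0 mismatches. These matches describe letters in a short window. Well-known p53 sites of Mdm2 and Gadd45a lie inside the genes, outside it.

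All 11 probes were above background on all 5 arrays. Levels are log2 intensities minus the array's 75th percentile, and a level of 1 probe cannot be set against that of another. A difference of at least 2-fold, or 1 on the log2 scale, was called. Levels at 3 h are listed in the order of dose, from control through low to high. With 1 array a group there is no replicate check and no p-value for any pair of arrays. The scanner's own error for a log2 difference was near 0.204 for genes with 1 spot and 0.145 to 0.189 for Fas and Trp53, which had 2 spots. It covers technical error within the arrays only. In bulk RNA, fewer cells of a type and less RNA per cell cannot be told apart. Between 30884 and 33427 probes were above background per array, and the 75th percentile of signal ran between 420 and 725. Fos was higher at the high dose by 4.40 at 3 h and 5.07 at 48 h, so the high-dose arrays carried the response that the study's title names. The 3 h low-dose array carried a smaller rise of Fos, by 1.72 over control.

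The plot of levels by array shows 3 patterns. Gadd45a was higher on both high-dose arrays, Fas, Sesn1 and Trp53inp1 were lowest on the 48 h high-dose array, and Mdm2 stayed nearly level.

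**Figure D1:**
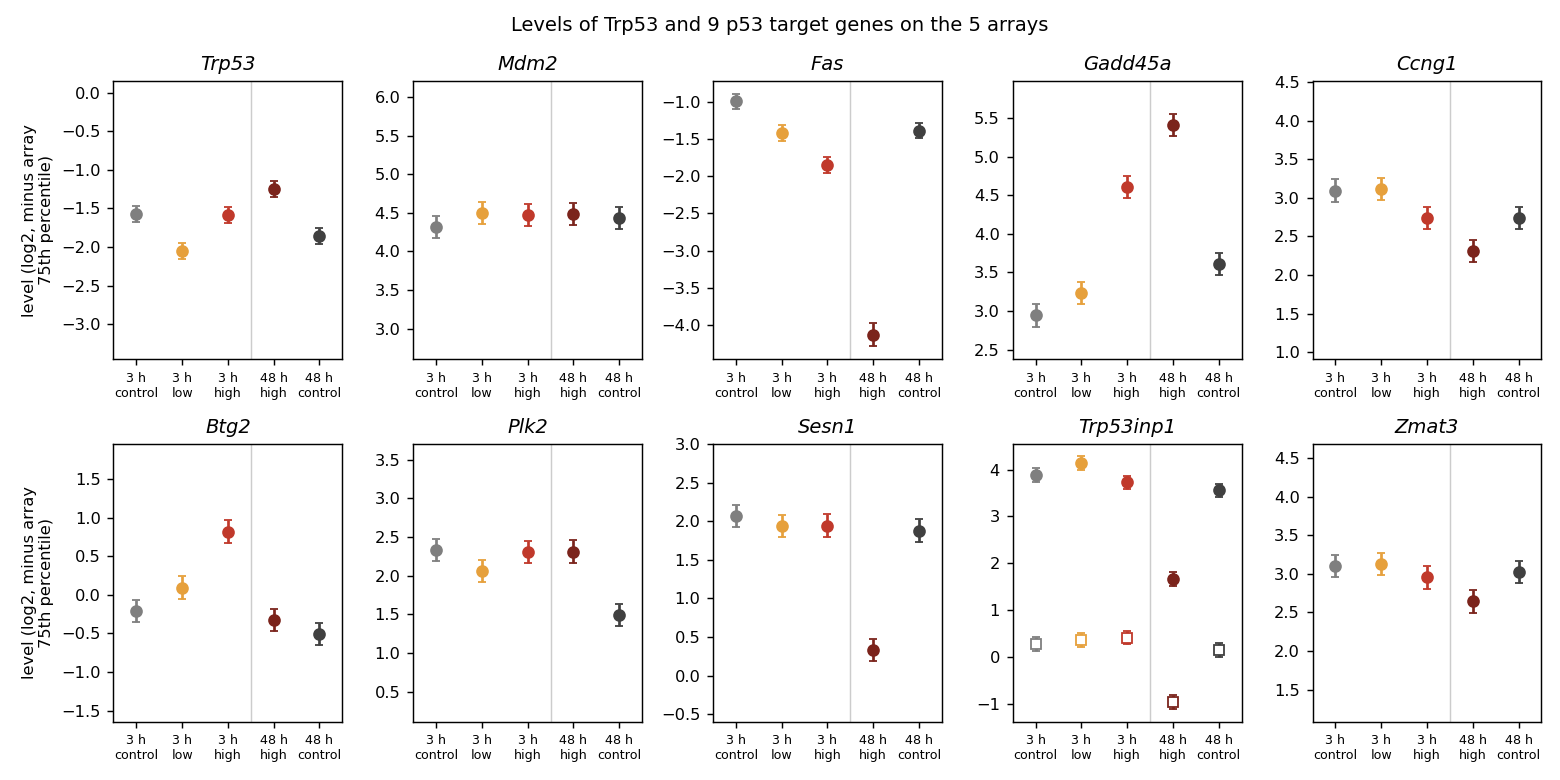
Levels of Trp53 and 9 p53 target genes on each array (y axis, log2 intensity minus the array's 75th percentile; every panel spans at least 3.6 log2 units), with the 3 h arrays at the left in order of dose and the 48 h high-dose array before its control. Points are single arrays and bars the scanner error; open squares are the second Trp53inp1 probe. Mdm2 spans 0.18 over the 5 arrays, Gadd45a 2.47 and Fas 3.15.

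The gene for p53 itself and that of its inhibitor Mdm2 did not pass 2-fold in any comparison. Trp53 stood at -1.58, -2.05 and -1.58 at 3 h by dose, at -1.25 at the 48 h high dose and at -1.85 in the 48 h control. The largest of its differences between high dose and control was 0.60 at 48 h (scanner error 0.146), and it was 0.32 against the 3 h control. At 3 h the difference was -0.01 for the high and -0.47 for the low dose. Its 2 spots on the 48 h high-dose array read -1.21 and -1.30, and those on the 48 h control array -1.88 and -1.83. The spots of the 3 h control array, at -1.52 and -1.63, did not overlap those of the 48 h control either. Spots are copies on 1 array, so their spread is technical and does not measure differences between cultures. Mdm2 stood at 4.32, 4.50 and 4.48 at 3 h by dose, and at 4.48 at the 48 h high dose against 4.43 in the 48 h control. Its whole range of 0.18 was smaller than the scanner error of a single difference. The high-dose differences of Mdm2 were 0.16 at 3 h and 0.05 at 48 h, and the 48 h value was -0.28 with quantile-normalised values.

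Fas encodes a death receptor at the cell surface through which Fas ligand starts apoptosis. Its levels were -0.99, -1.41 and -1.84 at 3 h by dose, and -4.14 at the 48 h high dose against -1.38 in the 48 h control. The 48 h high-dose array was far below the other 4, whose levels lay within 0.86 of each other. Fas was 6.73-fold lower at the 48 h high dose than in its control (log2 difference -2.75, scanner error 0.188). The 2 spots there read -4.35 and -3.92, at intensities of 20.5 and 27.8, near the array's dimmest level above background of -5.06. The size depended on background correction and normalisation, with a difference of -1.54 after normexp correction with an added offset and quantile normalisation. At 3 h the levels of Fas followed the dose, with a low-dose difference from control of -0.43 and a high-dose difference of -0.86. Neither passed 2-fold, and against the 48 h control they were -0.03 and -0.46.

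Gadd45a, a small stress protein of growth arrest and DNA repair, was the member that was higher at both times. It stood at 2.94, 3.23 and 4.60 at 3 h by dose, and at 5.41 at the 48 h high dose against 3.61 in the 48 h control. Both high-dose levels were above the 3 other arrays. The high dose was 3.16-fold above control at 3 h (log2 difference 1.66, scanner error 0.204) and 3.50-fold at 48 h (1.81). Among all genes measured, 0.807% had a larger difference in either direction at 3 h and 7.41% at 48 h. The low dose differed from its control by 0.29 and from the 48 h control by -0.37, and the high dose exceeded the low dose by 1.37, a difference that uses no control array. The 48 h control was 0.66 above the 3 h control, and against it the 3 h high dose was at 0.997, just short of 2-fold, where 5.04% of all genes were called.

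Btg2, an antiproliferative partner of the mRNA deadenylation machinery, was highest on the 3 h high-dose array. Its levels were -0.21, 0.09 and 0.82 at 3 h by dose, and -0.32 at the 48 h high dose against -0.51 in the 48 h control. The 3 h high dose was 2.04-fold above its control (log2 difference 1.03, scanner error 0.204), 1.32 above the 48 h control and 0.72 above the low dose. That call sits at the threshold, with 0.91 when arrays were centred on their median and 0.97 with quantile-normalised values. At 48 h the difference was 0.18, and the 48 h high dose was 1.14 lower than the 3 h high dose, on the log2 scale.

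Ccng1, cyclin G1, which binds a phosphatase that acts on Mdm2, did not pass 2-fold in any comparison. Its levels were 3.09, 3.11 and 2.74 at 3 h by dose and 2.31 at the 48 h high dose against 2.74 in the 48 h control. The high-dose differences were -0.35 at 3 h and -0.42 at 48 h, and the controls differed by -0.36. Plk2, a polo-like kinase induced by stress and in early response to growth signals, read 2.33, 2.06 and 2.30 at 3 h in the same order and 2.31 at the 48 h high dose against 1.49 in its control. The 48 h difference of 0.82 (scanner error 0.204) was not seen against the 3 h control, where it was -0.02. The 48 h control was the array that stood apart for Plk2, 0.84 below the 3 h control.

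Sesn1, a sestrin that restrains growth signalling through mTORC1 and counters oxidative stress, was lower on the 48 h high-dose array alone. It stood at 2.07, 1.94 and 1.94 at 3 h by dose, and at 0.33 at the 48 h high dose against 1.88 in the 48 h control. The first 3 and the 48 h control lay within 0.19 of each other, and the 48 h high dose was 2.91-fold below its control (log2 difference -1.54, scanner error 0.204). Trp53inp1, a nuclear stress protein that aids p53 activity and autophagy, was likewise lowest on the 48 h high-dose array on both probes. The brighter probe read 3.89, 4.14 and 3.73 at 3 h in order of dose, and 1.67 at the 48 h high dose against 3.56 in the 48 h control, which is 3.71-fold lower (-1.89). The second probe read 0.27, 0.36 and 0.41 at 3 h, and -0.97 at the 48 h high dose against 0.14 in the 48 h control, a difference of -1.11. At 48 h the probes thus gave the same direction and different sizes. At 3 h their signs differed, none at 2-fold. High dose over control was -0.16 on the brighter probe and 0.14 on the second, and high over low dose -0.41 and 0.05. Zmat3, an RNA-binding zinc finger protein, did not pass 2-fold, with levels between 2.95 and 3.13 at 3 h and 2.64 at the 48 h high dose against 3.03 in the 48 h control.

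At 3 h of the high dose, 2 of the 10 genes were higher at 2-fold, Gadd45a and Btg2, and 0 were lower. Over all 14004 genes measured on both arrays 3.31% were called, with 1.86% higher and 1.44% lower. The members' median difference was -0.08, against -0.01 for all genes. Of the 10 differences 3 were above 0, against 6693 of the 14004 genes. Against the 48 h control the members' median turned to 0.12, with 8 of 10 above 0. All genes then had a median of -0.01, with 7015 of 14325 above 0. Centring arrays on the median moved the median of all genes to -0.14 and higher genes to 40.5% of calls, against 56.4% with the 75th percentile. At the low dose 0 of 10 members were called, against 1.34% of all genes, and between the doses only Gadd45a was, against 2.16%.

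At 48 h of the high dose, 4 of the 10 genes passed 2-fold, with Gadd45a higher and Fas, Sesn1 and Trp53inp1 lower. Of all 13739 genes measured on both arrays 20.0% were called, 9.91% higher and 10.1% lower. The members' median was -0.17 and that of all genes 0.05. A larger difference in either direction was found for 2.85% of genes in the case of Fas and 6.83% for Trp53inp1. Those 4 were also called, in those directions, against the 3 h control, at -3.15 for Fas, 2.47 for Gadd45a, -1.74 for Sesn1 and -2.22 for Trp53inp1, on a background of 18.3%. That comparison shares its high-dose array with the first. Between the control arrays 0 of 10 members were called, against 3.87% of all genes.

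Cell type markers were also compared between the high-dose arrays and their controls. Whether a marker was read from the sarcoma cells or from other cells was not tested. The linear levels of 10 macrophage markers summed to 42.8 on the 48 h high-dose array against 8.19 in the 48 h control, and to 6.54 to 6.89 on the 3 h arrays, with most of each sum from the brightest probe of Csf1r. At 48 h the log2 differences of high dose over control on the 3 Csf1r probes were 2.41, 3.38 and 0.55, with the brightest probe first. Of the 10 markers, 9 were above background on the 48 h high-dose array and 5 in its control, with Tyrobp at least 21.3-fold and C1qc at least 9.40-fold higher. At 3 h, 5 were above background at the high dose and 8 in the control, and Tyrobp was at least 6.65-fold lower. Of 8 fibroblast markers, 7 were lower at 48 h (median -2.26) and 2 at 3 h (median -0.52), and 0 were higher at either time. Their linear levels summed to 53.3 at the 48 h high dose against 100 in its control and to 101 to 113 at 3 h, with most of each sum from Vim. Among 5 neural crest markers measured, 0 were higher and 2 lower at 48 h (median -0.21), with Ngfr at -6.45 and S100b at 0.72, and 0 were called at 3 h. S100b made up most of the list's summed level of 149 at the 48 h high dose against 110 in its control. Melanocyte markers gave 0 calls among 3 measured at each time and summed to 8.23 at the 48 h high dose against 6.75 in its control, with Dct and Tyrp1 below background on all 5 arrays. The endothelial marker Tek was at least 2.11-fold lower at 48 h and Cdh5 was below background on all 5 arrays, while the list summed to 10.1 at the 48 h high dose against 6.35 in its control, nearly all of it from Kdr. Of 4 epithelial markers, Epcam was at least 7.26-fold higher and Krt18 at least 1.62-fold higher at the 3 h high dose than in its control, on the array of the Gadd45a and Btg2 calls. At 48 h, 0 of them were above background at the high dose and 1 in the control. The part of these shifts in the values of Gadd45a and Btg2 at 3 h, and of Fas, Gadd45a, Sesn1 and Trp53inp1 at 48 h, was not tested.

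Set against the 3 h high dose, the 48 h high dose had 4 members lower and 0 higher, where 17.6% of all genes were called, 9.13% higher and 8.43% lower. Fas was at -2.29, Trp53inp1 at -2.06, Sesn1 at -1.61 and Btg2 at -1.14. Gadd45a was 0.81 higher at 48 h, and Trp53 0.33. No control array enters this comparison.

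**Figure D2:**
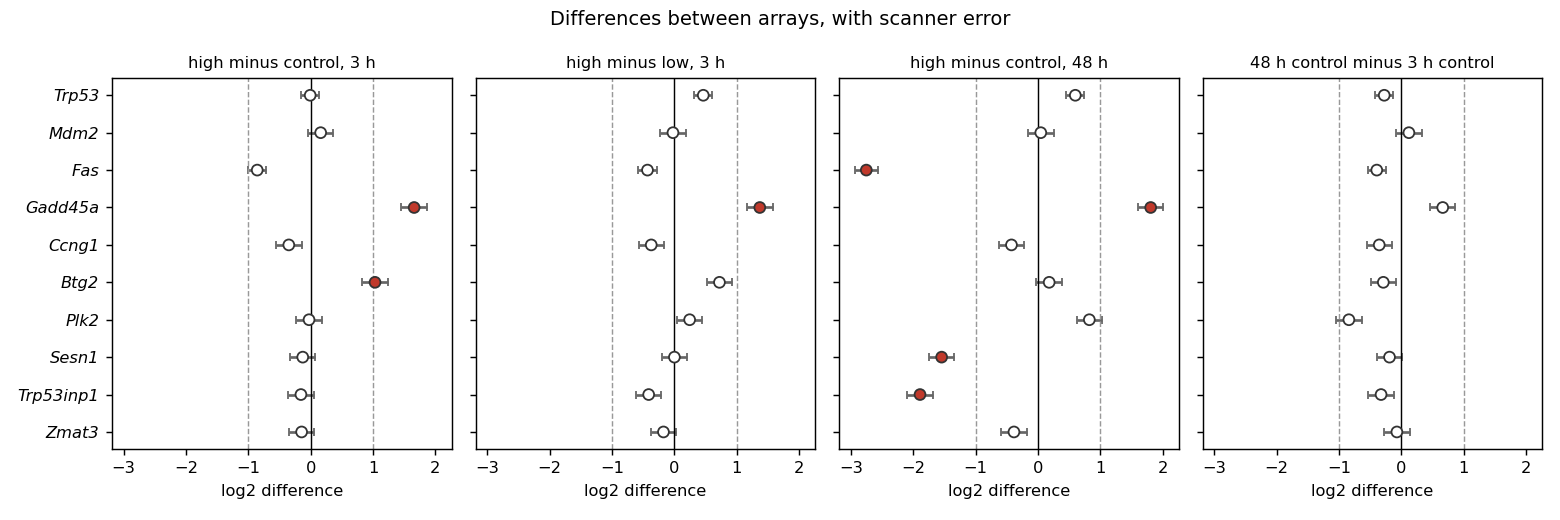
Log2 differences of the 10 genes (rows) in 4 comparisons (panels), with the scanner error as bars; dashed lines mark 2-fold and filled points are called. Gadd45a is to the right of 2-fold in the first 3 panels, Btg2 in the first only, and Fas, Sesn1 and Trp53inp1 lie left of it at 48 h; no gene is called between the controls.

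A residual degree of freedom was left only by a fit of time and dose to 4 arrays, the high doses and their controls, and this fit counts an effect at 1 time as error. In limma, 0 of 10 members and 0 of 14599 genes (0%) had a Benjamini-Hochberg adjusted p under 0.05. An unadjusted limma p under 0.05 was found for 498 of the 14599 genes, 2 of them members. That share of all genes is below 0.05, the share that no effect at all would give. Gadd45a had an estimated high-dose effect of 1.73 (SE 0.239, limma adjusted p = 0.884), higher at both times. Fas had -1.80 (SE 0.590, limma adjusted p = 0.884), lower at both times. Members' adjusted p ran between 0.884 and 0.937. Even Fos, at 4.74, had an adjusted p of 0.884 in this limma fit.

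Several members, called or not, were also set beside relatives in their own family, and the plot of families shows calls in both directions at 48 h. In the Gadd45 family, Gadd45b was at 0.08 and 0.37 and Gadd45g at -0.07 and 0.43 for high dose over control at 3 h and 48 h, none of which passed 2-fold. In the sestrin family, Sesn3 was lower at 48 h with Sesn1, at -1.53, and Sesn2 was at -0.75. Btg1, an antiproliferative relative of Btg2, was lower at 48 h at -1.96, with -1.43 on its second probe, while Btg2 stood at 0.18. Among polo-like kinases the mitotic kinase gene Plk1 was higher at 48 h by 3.43 and Plk3 by 1.53. Plk4, which drives centriole duplication, was below background in the control and at least 4.44-fold higher. Plk1 also differed between controls, by 1.90. Ccng2, the relative of Ccng1, was lower by 1.27 on the log2 scale, and Trp53inp2 was at 0.06. For the Fas pathway, the adaptor gene Fadd was at 0.40 and the caspase gene Casp8 at 0.03, while Fasl was above background on neither array of the 48 h pair. Of 17 relatives measured, 2 were higher and 3 lower at 48 h (median 0.06), and 0 were called at 3 h (median -0.06), against 20.0% and 3.31% of all genes called.

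**Figure D3:**
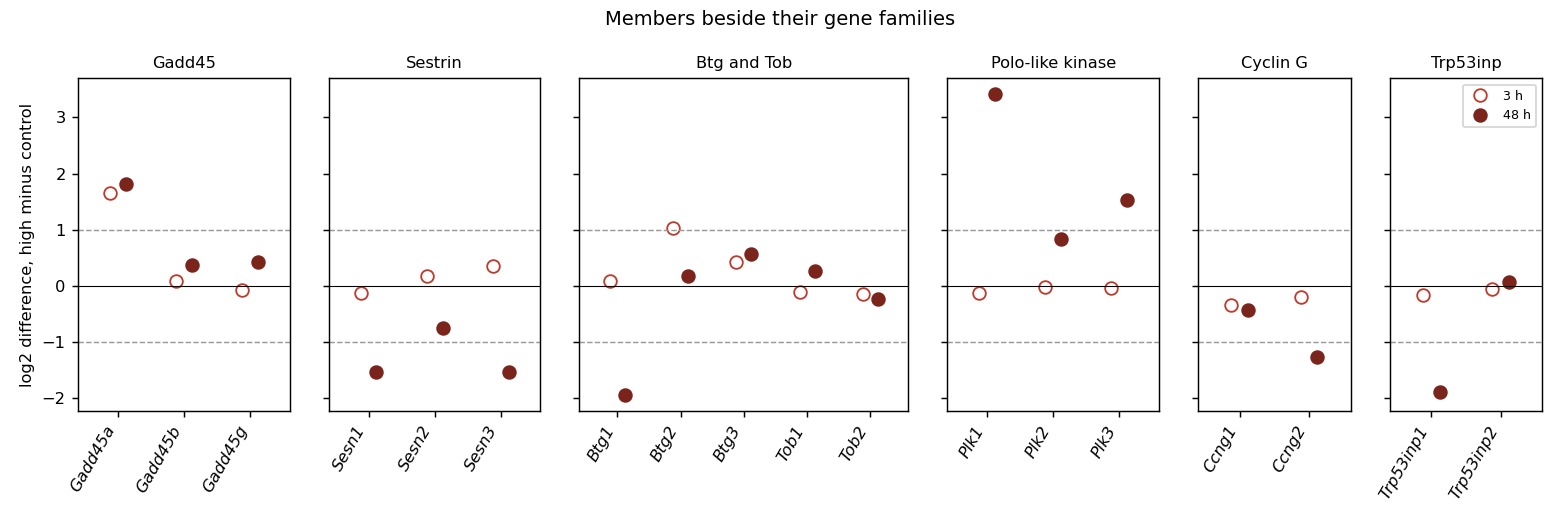
Log2 difference of high dose over control (y axis) for members and their relatives by gene family; open circles are 3 h and filled circles 48 h, and dashed lines mark 2-fold. Gadd45a is above 2-fold at both times while Gadd45b and Gadd45g are not; Sesn1 and Sesn3 lie near -1.5 at 48 h, Plk1 at 3.43 and Btg1 at -1.96.

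Of the family of p53 itself, Trp63 read 3.26, 3.31 and 3.14 at 3 h in order of dose and 2.90 at the 48 h high dose against 3.12 in the 48 h control. Only its brighter probe was above background. Trp73 lay between -2.19 and -2.02 on all 5 arrays. Regulators of p53 gave 0 calls at 3 h among 23 measured (median 0.13), and 1 higher and 4 lower at 48 h (median -0.14), where 20.0% of all genes were called. Cdkn2a, whose Arf product inhibits Mdm2, read 4.42, 4.47 and 4.51 at 3 h and 2.67 at the 48 h high dose against 4.70 in the 48 h control. It was lower at 48 h by 2.03 on the brighter probe (log2 difference -2.03) and by 2.61 on the other (-2.61). Twist1, a mesenchymal transcription factor that restrains p53, was at -2.04, and Chek2, a DNA damage checkpoint kinase, was higher by 1.69. Hipk2, a kinase that phosphorylates p53, was at -1.31 on its brighter probe and at 0.43 on the other, so its probes disagreed. Mdm4, the partner of Mdm2, did not pass 2-fold, at 0.16 at 3 h and -0.37 at 48 h, with 0.23 and 0.31 on its second probe.

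Other p53 targets were called in both directions. Among 30 measured at 3 h, 1 was higher at the high dose and 2 were lower (median -0.15), against 3.31% of all genes called. Pmaip1, which encodes the apoptosis protein Noxa, was higher by 1.34, and by 1.07 at the low dose. Bbc3, encoding the apoptosis protein Puma, was at -1.05, and Psrc1, a microtubule-associated protein gene, at -1.08. Against the 48 h control array these were 0.89 for Pmaip1, -0.83 for Bbc3 and 0.07 for Psrc1, none of them at 2-fold. The death receptor gene Eda2r was below background at the high dose and at least 2.53-fold lower than in the 3 h control. Its level of -4.14 there was near that array's dimmest level above background of -5.18. Eda2r was also below background in the 48 h control, at -5.46 against -5.59 at the 3 h high dose. At 48 h, 3 of 31 were higher and 2 lower (median -0.08), against 20.0% of all genes called. The higher ones were Pidd1, a gene of the p53 death pathway, at 1.39, and Gtse1 at 4.38 and Ckap2, both genes of dividing cells. Ckap2 had a level of 0.27 at the 48 h high dose against -3.73 in its control. Cbr2, a carbonyl reductase, was at -4.65 (-2.59 on its second probe) and Ephx1, an epoxide hydrolase, at -2.30 (-2.13). Against the 3 h control array Pidd1 was at 0.36, short of 2-fold. Gtse1 was then at 3.45, Ckap2 at 3.83, Cbr2 at -4.69 and Ephx1 at -1.46. Cdkn1a, the cell cycle inhibitor p21, read 2.90, 3.27 and 3.34 at 3 h in order of dose and 2.01 at the 48 h high dose against 2.88 in the 48 h control. Its differences of 0.43 at 3 h and -0.88 at 48 h did not pass 2-fold.

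Cell cycle genes that p53 is known to lower were far higher at 48 h of the high dose. All 12 measured genes of this list of 15 were higher and 0 lower (median 5.20), against 9.91% of all genes higher. Mki67, the proliferation marker, was at 6.86, the ubiquitin-conjugating enzyme gene Ube2c at 6.68, cyclin A2 (Ccna2) at 6.26 and the survivin gene Birc5 at 5.74. The 3 others were below background in the control, with Bub1 at least 51.0-fold, Cdc25c at least 27.0-fold and Ncapg at least 3.50-fold higher. At 3 h, 0 of 12 were called (median -0.16).

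**Figure D4:**
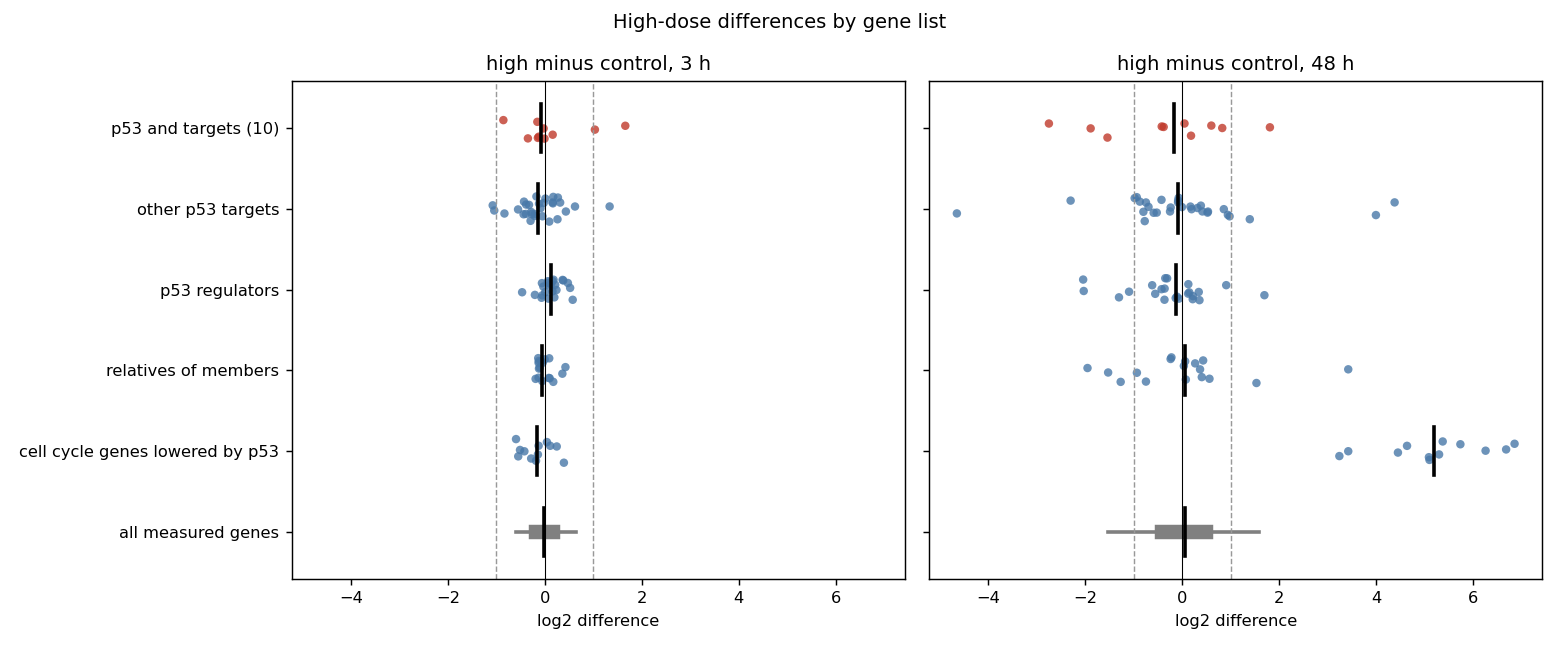
Log2 differences of high dose over control at 3 h (left) and 48 h (right) for the 10 genes, other p53 targets, p53 regulators, relatives and cell cycle genes lowered by p53. Points are genes, black bars medians; for all measured genes the thick bar spans the 25th to 75th and the thin line the 5th to 95th percentile. The list medians at 48 h lie between -0.17 and 0.06 except for the cell cycle genes at 5.20.

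For each gene with a range of 1 or more, the 2 genes of nearest profile over the 5 arrays were found among 13469 genes above background on all of them. Nearness was the root mean square difference of levels after each gene's own mean was removed. Nearest to Fas were Nkain4 (0.106) and Gucy1b1 (0.128), which encodes a subunit of soluble guanylate cyclase. Nkain4 stood at -4.54 at the 48 h high dose against -1.72 in the 48 h control. Gadd45a was nearest to Fndc1 (0.130) and to Lpar3 (0.131), a lysophosphatidic acid receptor gene, and Btg2 to Soat2 (0.0874) and the phosphodiesterase gene Pde4b (0.108). For Sesn1 the nearest were Mrc2 (0.0416), a collagen-binding receptor gene, and Add3 (0.0496). Trp53inp1 was closest to Cdh11 (0.0332), the mesenchymal cadherin gene, and Sema3f (0.0795). Cdh11 read 2.80, 3.00 and 2.64 at 3 h in order of dose, and 0.54 at the 48 h high dose against 2.38 in the 48 h control. With 5 arrays, of which 1 stands apart, near profiles are a description of these arrays only.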

How the data were processed

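Total RNA of 5 groups, 1 array each, was labelled with Cy3, per the labels' protocols, and read with Agilent Feature Extraction 10.7.3.1, per the submitters' processing notes. The deposited intensity values are linear; the software had subtracted background within each array, per the file headers, and they are not normalised between arrays. All arrays lay on 1 slide in 1 scan. The deposited value table matched these intensities within 0.01 (log2) for 99.8% to 99.9% of probes, with medians of 38.6, 32.7, 32.2, 38.1 and 24.1 for the 3 h arrays by dose and the 48 h control and high-dose arrays, so it is linear and not centred.

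Intensities were taken to log2 and the array's 75th percentile was subtracted; 111 to 146 outlier spots per array were left out and 0 were saturated. A probe was above background if at least 0.5 of its spots were so marked, and the brightest probe stood for a gene. Names came from RefSeq (GRCm38.p6, names and promoters only, since the headers give mm9): 26403 of 27016 RefSeq-accession probes matched, and 26413 probes had 1 symbol, 0 several and 29268 none. Which part of a transcript a probe reads is not known here. For a gene below background on 1 array, the "at least" fold takes as floor that array's lowest signal above background, or the probe's own if higher. The fit used limma 3.58.1 in R 4.3.3, with the intensity trend, over genes that 2 or more of the 4 arrays measured above background; scripts were tested on simulated data. The planned normexp alternative (offset 50) used median spot signals, as the mean signal column was not in these files.

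The members, the gene lists and the tests were chosen with earlier results of these data known. All 10 members are named with every probe, and of each other list the up to 4 genes of largest called difference at 3 h and at 48 h. Cdkn1a, Mdm4, Cdkn2a, Trp63, Trp73 and Fos are named in any case, and other relatives named in the text were chosen after their values were seen.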

Additional observations from a re-analysis of the deposited data

Results flagged for a closer look

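Cdkn1a, the p21 gene and a classical p53 target, had opposite high-dose differences at the 2 times, each beyond the scanner error of 0.0645. It was at 0.43 for the high dose over control at 3 h and at -0.88 at 48 h, on a probe with 10 spots whose SD for the difference was 0.0553 and 0.0481. The difference between the times was not tested, since each group has 1 array. A second probe with 1 spot read -0.26 at 3 h and -0.27 at 48 h, so the probes disagreed in direction at 3 h.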

How the results depend on the processing

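The count of members called for high dose over control at 3 h, 2 as reported, was 1 with median centring, 1 with normexp and quantile normalization, and 1 against the other control array. Gadd45a kept its call under both scalings, and Btg2 kept it against the other control. Every other count of members called was within 1.5 times its reported value under the alternatives run. Of 330 member values under alternatives, 297 moved by less than the scanner error, 33 by more, and 0 of those called changed sign. Many of these values could hardly move. Leaving out the filter changed no member value, since all member probes were above background. The mean of all probes could change Trp53inp1 only, and the deposited table held nearly the same intensities. Most of the values that moved did so against the other control array. Counts over all genes depended on the settings. With normexp and quantile normalization they were 212 against 463 for the high dose and 94 against 189 for the low dose at 3 h, 123 against 310 between the doses, and 270 against 542 between the controls. Without the filter on dim probes they were 1361, 817, 1230 and 1361 in the same order, 4470 against 2748 for the high dose at 48 h and 4008 against 2418 between the high doses. Against the other control, 722 genes were called for the high and 768 for the low dose at 3 h. Higher genes then made up 39.1% of calls for the high dose, against 56.4%, and 38.8% for the low dose, against 56.6%. Between the controls it was 47.4% with median centring, against 64.8%. The limma fit called 0 members under every alternative run; without the filter on dim probes it called 4 genes and the lowest adjusted p of a member was 0.160, and the others gave 0.864 to 0.924 (limma). No paired analysis was possible because the labels carry no replicate numbers and each group has 1 array, so no array could be left out within a group. The limma fit has time as a term, which sets high dose against control within each time. The number of arrays limits the precision of every value.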
